A study of Mus musculus with 56 samples.

Results

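Epithelial-rich tumors were the 42 of 56 transplanted mammary tumors with the higher levels of 4 genes of epithelial junctions and surfaces. These genes were Cdh1 (E-cadherin, which joins epithelial cells), Epcam (an epithelial adhesion molecule), and Cldn3 and Cldn7 (claudins of tight junctions). The tumors were chosen by the measured values of these genes, and the score of a tumor was the mean log2 value of the 4 genes, tumors were ranked within each host genotype, and the lowest 8 of wild-type hosts and the lowest 6 of heterozygote hosts were dropped. All tumors grew from p53-null mammary fragments that had not been irradiated, placed in the inguinal fat pads of female BALB/c hosts whose own mammary epithelium was removed at 3 weeks of age. Host mice were irradiated or sham-irradiated 3 days before the transplant, so irradiation reached the host and not the cells that became the tumor. The labels give no dose. Hosts were heterozygous for Tgfb1, the gene of transforming growth factor beta 1, or wild type. The epithelial-rich set held 14 tumors of irradiated heterozygote hosts, 4 of sham-irradiated heterozygote hosts, 17 of irradiated wild-type hosts and 7 of sham-irradiated wild-type hosts. Each tumor had 1 array of total RNA, whether some tumors came from 1 host is not stated, so p-values describe only how far these arrays vary, which may in part be technical.

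Mammary tumors that lack p53 range from epithelial forms with cell junctions to spindle-like forms that have lost them and express mesenchymal genes. RNA of a whole tumor mixes the tumor cells with stroma, vessels and immune cells of the host. Limiting the comparison to epithelial-rich tumors asks whether irradiating the host left a difference in tumors of high epithelial score. It does not make the scores of irradiated and sham groups equal. Ionizing radiation of the stroma is known to activate TGF-beta, a cytokine that restrains epithelial growth and shapes fibroblasts and immune cells. The gene p53 itself is lost in the transplanted epithelium, while host cells carry it.

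The 4 score genes were bright in every kept tumor, as the label of an epithelial-rich tumor requires. Scores ran from 12.03 to 12.74 in kept tumors of heterozygote hosts, against 9.23 to 12.03 in the dropped tumors of those hosts. In wild-type hosts they ran from 12.20 to 12.93 in kept tumors, against 6.82 to 12.17 in dropped tumors. The limit did not fall in a gap of the scores. In heterozygote hosts the last tumor kept, Het_irradiated replicate 50, scored 12.03, and so did the first one dropped, Het_irradiated replicate 23, with the next dropped at 11.72. In wild-type hosts WT_sham replicate 31 was kept at 12.20 and WT_irradiated replicate 5 was dropped at 12.17, with the next dropped at 10.70. The plot of scores shows the kept tumors of the 4 groups on a narrow band near the top and the dropped ones spread below it.

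**Figure D1:**
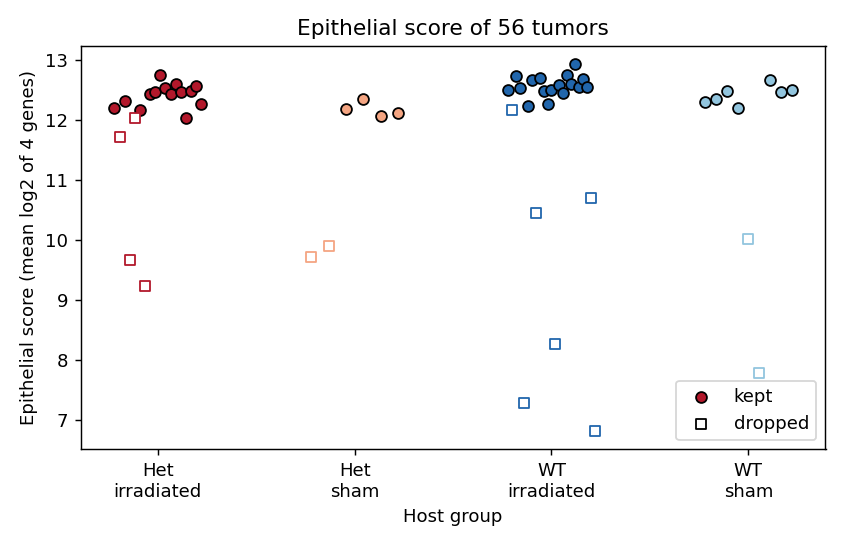
Epithelial score (mean log2 of Cdh1, Epcam, Cldn3 and Cldn7) of each of 56 tumors by host group, with filled circles for the 42 kept tumors and open squares for the 14 dropped ones. Kept tumors lie between 12.03 and 12.93, and 1 dropped tumor of each host genotype lies at the edge of that band, at 12.03 and 12.17.

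No difference in the share of dropped tumors was detectable by host irradiation. In heterozygote hosts 4 of 18 tumors of irradiated hosts and 2 of 6 tumors of sham hosts were dropped (Fisher's exact test, two-sided, p = 0.618). In wild-type hosts 6 of 23 tumors of irradiated hosts and 2 of 9 tumors of sham hosts were dropped (Fisher's exact test, two-sided, p = 1). Median scores of the kept tumors were 12.45 in irradiated and 12.15 in sham heterozygote hosts, and 12.54 in irradiated and 12.47 in sham wild-type hosts. Cldn7 was at 11.46, 12.19 and 12.71 (lowest, median and highest) in irradiated heterozygote hosts, against 10.96, 11.64, 11.67 and 12.09 in their 4 sham counterparts. Since these genes chose the tumors, their values are given as a description, with no test. A second epithelial score from Esrp1, Grhl2, St14, Spint1 and Rab25, genes of epithelial splicing, transcription, membrane proteases and vesicle traffic, kept 41 of the 42 tumors.

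Most of the 14 dropped tumors had higher stromal and mesenchymal values than the kept ones, but not all. The fibroblast and matrix score, the mean log2 of 19 collagen and stromal genes, ran from 8.74 to 10.87 in kept and 10.52 to 12.32 in dropped tumors of irradiated heterozygote hosts. In irradiated wild-type hosts it ran from 9.60 to 10.84 in kept and 9.71 to 12.03 in dropped tumors. The mesenchymal transition score, which holds genes such as Vim and Zeb2, ran from 7.38 to 8.73 in kept and 9.22 to 9.87 in dropped tumors of irradiated heterozygote hosts. The ranges of kept and dropped tumors did not overlap for the mesenchymal score there, and overlapped for the fibroblast score. Sham wild-type hosts had fibroblast scores of 9.28 to 11.61 in kept and 11.50 to 11.91 in dropped tumors, so a kept sham tumor lay within the dropped range. Their mesenchymal scores were 7.45 to 9.40 in kept and 9.67 to 9.85 in dropped tumors, and the lowest dropped tumor of irradiated wild-type hosts was at 8.63. In bulk tissue, fewer cells of a type and less RNA per cell cannot be told apart. The median residual spread of a gene was 0.35 on the log2 scale in the 42 epithelial-rich tumors and 0.41 in all 56.

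Control probe sets of the kept arrays differed in part between irradiated and sham hosts. The control for ribosomal 18S RNA stood at 12.97 ± 0.28 (SD, n = 17) in irradiated and 11.45 ± 1.89 (SD, n = 7) in sham wild-type hosts (two-sided exact permutation test, p = 0.0149). WT_sham replicates 61, 64 and 65 were below 11, and no kept tumor of an irradiated host was. Among dropped tumors, WT_irradiated replicates 57 and 59 were at 10.66 and 9.46, and WT_sham replicate 60 at 9.44. All wild-type arrays numbered 57 or higher, irradiated or sham, were thus below 11, and those of lower number were at 11.95 or above. In wild-type hosts low 18S therefore went with the replicate number, and the kept irradiated tumors had none of the high numbers. The heterozygote values of 18S were 12.22 ± 0.63 (SD, n = 14) in irradiated and 12.23 ± 0.34 (SD, n = 4) in sham hosts (two-sided exact permutation test, p = 0.974). RNA integrity was read as the signal of the Actb and Gapdh control probe sets at the 3' end minus that at the 5' end, which was 0.238 ± 0.054 (SD, n = 14) in irradiated and 0.354 ± 0.122 (SD, n = 4) in sham heterozygote hosts (two-sided exact permutation test, p = 0.0183). Among these sham tumors, Het_sham replicate 38 was at 0.536. The others, at 0.284, 0.284 and 0.311, lay within the irradiated range of 0.143 to 0.328. Wild-type values of the 3' minus 5' difference were 0.178 ± 0.048 (SD, n = 17) in irradiated and 0.216 ± 0.028 (SD, n = 7) in sham hosts (two-sided exact permutation test, p = 0.0682). Their part in the results was not tested beyond the counts given with each control as a covariate.

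Among epithelial-rich tumors, a small group of genes differed between irradiated and sham hosts. Higher after host irradiation were genes of the proteasome (Psma2), the mitochondrial ribosome (Mrps23), mitochondrial porphyrin transport (Tmem14c), mRNA decay (Lsm1), vesicle fusion (Ykt6) and endoplasmic reticulum protein quality control (Ubxn8), with Ankra2 and Edn3. Lower were Rsf1, a chromatin remodelling factor, Stard13, a protein with a lipid-binding START domain, and 2 gene models named only by RIKEN clone, 5430405H02Rik and 6430590A07Rik. Log2 fold changes ran from 0.31 to 0.51 for the 8 higher genes, and the 4 lower ones fell by 0.42 to 0.58 on the log2 scale. With host genotype as a block, 12 of 12508 genes (0.0959%) passed a limma adjusted p of 0.05, of which 8 were higher (0.064%) and 4 lower (0.032%). At an unadjusted p under 0.05 there were 1676 genes (13.4%), 850 higher (6.8%) and 826 lower (6.6%). The count moved with the tumors and the settings, as given after the genes.

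Ankra2, an ankyrin repeat protein that binds megalin and class IIa histone deacetylases, was higher in irradiated hosts of both genotypes. Its lowest, median and highest log2 values were 7.17, 7.53 and 7.73 in irradiated heterozygote hosts, against 6.94, 6.97, 7.03 and 7.06 in the 4 sham ones. All 14 irradiated tumors lay above the highest sham tumor there. In wild-type hosts the values were 7.49, 8.01 and 8.57 in irradiated hosts and 7.24, 7.63 and 7.81 in sham hosts (lowest, median and highest). There 14 of 17 irradiated tumors lay above the highest sham tumor, so the groups overlapped. The log2 fold change, ± its standard error, was 0.42 ± 0.08 (limma adjusted p = 0.0245). It was 0.48 in heterozygote and 0.37 in wild-type hosts. A dim second probe set of Ankra2, above the median of all values on 0 arrays, did not measure it.

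Tmem14c, which carries porphyrin across the inner mitochondrial membrane for heme synthesis, was also higher. Its lowest, median and highest log2 values were 10.24, 10.65 and 10.87 in irradiated heterozygote hosts, against 9.61, 9.90, 10.35 and 10.53 in the sham ones. In wild-type hosts they were 10.58, 10.79 and 10.98 in irradiated and 10.18, 10.37 and 10.81 in sham hosts. Every irradiated tumor lay above the sham median of its host genotype, and the ranges overlapped in both genotypes. The log2 fold change, ± its standard error, was 0.39 ± 0.07 (limma adjusted p = 0.0245), at 0.52 in heterozygote and 0.30 in wild-type hosts.

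Psma2 encodes an alpha subunit of the 20S core of the proteasome, the protease that degrades ubiquitin-tagged proteins. Its lowest, median and highest log2 values were 12.18, 12.42 and 12.58 in irradiated heterozygote hosts, against 11.83, 11.83, 12.18 and 12.59 in the sham ones. In wild-type hosts they were 12.39, 12.63 and 12.86 in irradiated and 12.14, 12.36 and 12.54 in sham hosts. In wild-type hosts 13 of 17 irradiated tumors lay above the highest sham tumor. In heterozygote hosts none did, because 1 sham tumor stood at the top of the irradiated range while all irradiated tumors lay above the sham median. The log2 fold change, ± its standard error, was 0.31 ± 0.06 (limma adjusted p = 0.0253), at 0.29 in heterozygote and 0.32 in wild-type hosts. Mrpl32, a protein of the large mitochondrial ribosomal subunit and the next protein-coding gene to Psma2 on chromosome 13, had a log2 fold change of 0.29 and did not pass (limma adjusted p = 0.0834).

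The other 5 higher genes passed at the same limma adjusted p of 0.0476. Mrps23, a protein of the small mitochondrial ribosomal subunit, averaged 9.36 ± 0.29 in irradiated and 8.70 ± 0.33 in sham heterozygote hosts (SD, n = 14 and 4), and 9.58 ± 0.21 in irradiated and 9.22 ± 0.41 in sham wild-type hosts (SD, n = 17 and 7). Lsm1, of the ring complex that binds mRNA tails before decapping, averaged 9.30 ± 0.30 in irradiated and 8.84 ± 0.49 in sham heterozygote hosts, and 9.57 ± 0.21 in irradiated and 9.05 ± 0.43 in sham wild-type hosts. Ubxn8 anchors the ATPase p97 at the endoplasmic reticulum, and 13 of 14 heterozygote and 12 of 17 wild-type irradiated tumors lay above their highest sham tumor. Its log2 values ran from 7.54 to 8.87 in irradiated and 7.02 to 7.66 in sham heterozygote hosts, and from 7.21 to 8.36 in irradiated and 6.95 to 7.96 in sham wild-type hosts. Ykt6 is a SNARE of vesicle fusion, and only 5 of 14 and 2 of 17 irradiated tumors lay above the highest sham tumor, although all 31 lay above the sham median of their host. For Ykt6 the sham tumors spread more widely than the irradiated ones, with SDs of 0.14 in irradiated and 0.32 in sham heterozygote hosts, and 0.12 in irradiated and 0.41 in sham wild-type hosts. Log2 fold changes were 0.48 for Mrps23, 0.50 for Lsm1, 0.51 for Ubxn8 and 0.36 for Ykt6.

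Edn3, the vasoactive and melanocyte peptide endothelin 3, was measured less well. Its lowest, median and highest log2 values were 5.70, 5.99 and 6.64 in irradiated heterozygote hosts, against 5.40, 5.56, 5.58 and 5.74 in the sham ones, and 5.96, 6.43 and 7.03 in irradiated and 5.46, 6.06 and 6.42 in sham wild-type hosts. All 14 irradiated tumors of heterozygote hosts lay above the sham median, and 12 above the highest sham tumor. The log2 fold change, ± its standard error, was 0.43 ± 0.09 (limma adjusted p = 0.0476). A dimmer probe set of Edn3, above the median of all values on 14 arrays, gave -0.15 in heterozygote and 0.18 in wild-type hosts. Another, above it on 10 arrays, gave -0.09 in heterozygote and 0.10 in wild-type hosts. Both thus disagreed in sign with the probe set used in heterozygote hosts. The second probe sets of Ykt6 (0.54 in heterozygote and 0.59 in wild-type hosts), Mrps23 (0.43 in heterozygote and 0.24 in wild-type hosts) and Lsm1 (0.21 in heterozygote and 0.07 in wild-type hosts) were positive.

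Of the 4 lower genes, 5430405H02Rik had the lowest p. Its lowest, median and highest log2 values were 6.37, 6.84 and 7.29 in irradiated heterozygote hosts, against 6.95, 7.30, 7.52 and 7.71 in the sham ones. In wild-type hosts they were 6.87, 7.23 and 7.49 in irradiated and 7.20, 7.79 and 7.94 in sham hosts. All 31 irradiated tumors lay below the sham median of their host, and the ranges overlapped in both genotypes. The log2 fold change, ± its standard error, was -0.49 ± 0.09 (limma adjusted p = 0.0136). The other gene model, 6430590A07Rik, differed by -0.49 on the log2 scale (limma adjusted p = 0.0476).

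Rsf1, a subunit of the chromatin remodelling complex RSF, fell in both genotypes. Its lowest, median and highest log2 values were 7.87, 8.49 and 8.67 in irradiated heterozygote hosts, against 8.61, 8.76, 8.85 and 9.01 in the sham ones, and 8.29, 8.65 and 9.00 in irradiated and 8.70, 8.90 and 9.64 in sham wild-type hosts. In heterozygote hosts 13 of 14 irradiated tumors lay below the lowest sham tumor, and in wild-type hosts 11 of 17. The log2 fold change, ± its standard error, was -0.42 ± 0.09 (limma adjusted p = 0.0442), and 3 other probe sets of Rsf1 were lower in both genotypes. Stard13 was at 5.48, 5.94 and 6.64 in irradiated heterozygote hosts, against 5.85, 5.89, 6.48 and 6.61 in the sham ones, and at 5.43, 5.98 and 6.63 in irradiated and 6.03, 6.94 and 7.34 in sham wild-type hosts. Its log2 fold change was -0.58 overall (limma adjusted p = 0.0476), -0.22 in heterozygote and -0.81 in wild-type hosts. The difference of 0.58 between the host genotypes did not pass (limma adjusted p = 0.749). The strip plots of the 12 genes show these values tumor by tumor.

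**Figure D2:**
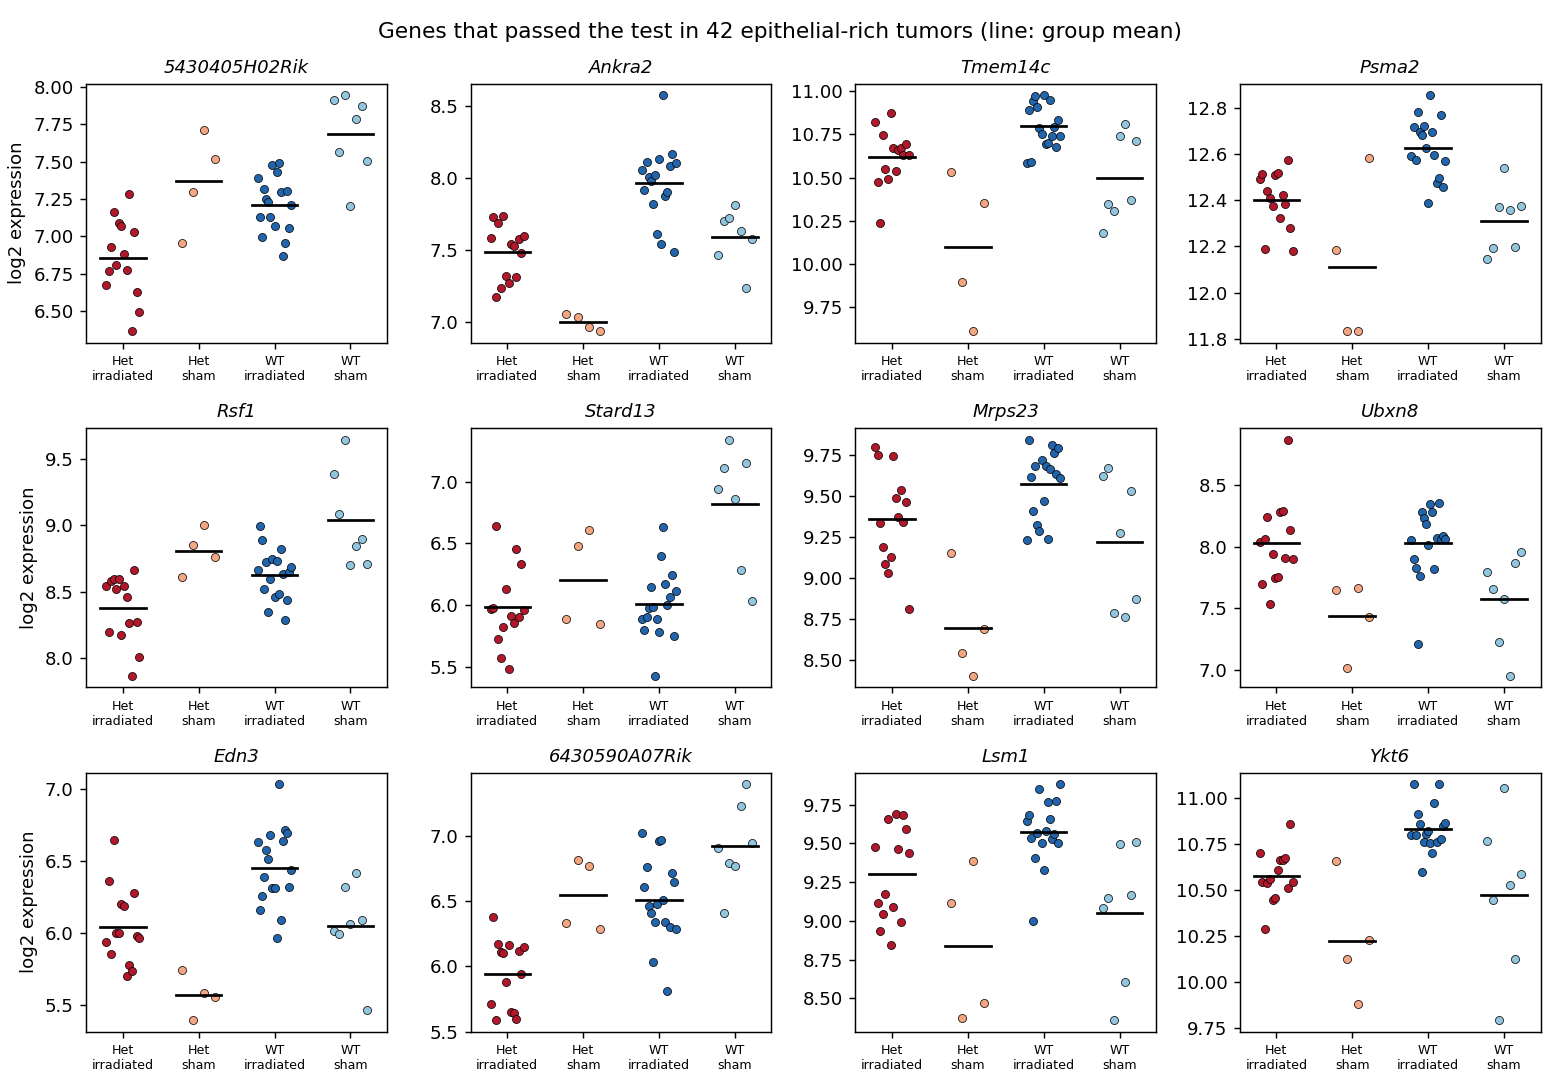
Log2 expression of the 12 genes that passed a limma adjusted p of 0.05, in 42 epithelial-rich tumors by host group, 1 point a tumor, with a line at each group mean. All 14 irradiated heterozygote tumors lie above the 4 sham ones for Ankra2, while for Psma2 and Ykt6 a sham tumor reaches the upper part of the irradiated range.

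Genes next in order did not pass. Socs3, a feedback inhibitor of cytokine signalling, differed by 0.78 on the log2 scale (limma adjusted p = 0.0996), and 30 of 31 irradiated tumors lay above the sham median of their host. Apod, a secreted lipid carrier, had the largest difference of the 12 genes of lowest p in each direction, -1.73 (limma adjusted p = 0.065). It was at 6.12, 7.94 and 9.65 (lowest, median and highest) in irradiated heterozygote hosts, against 8.47, 9.97, 11.14 and 13.04 in the sham ones. In wild-type hosts irradiated tumors ran from 6.92 to 8.83, all within the range of the sham tumors, 6.49 to 12.45. Pdcd6, a calcium-binding protein of vesicle traffic, and Dbnl, an actin-binding adaptor, had log2 fold changes of 0.24 and 0.38. Below 0 were Gigyf1 at -0.39, Crkl (a signalling adaptor) at -0.37, Gas2l3 at -0.57, Ivd (an enzyme of leucine breakdown) at -0.55, Aph1b (a gamma-secretase subunit) at -0.53, Zer1 at -0.37 and 2900093K20Rik at -0.51. Limma adjusted p-values of these genes ran from 0.065 to 0.0996.

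Single tumors moved the count. Leaving out each of the 42 tumors in turn gave 0 to 42 genes, fewer than 12 in 38 cases and more in 4. Limma called 0 genes without WT_sham replicate 64, where 1430 had an unadjusted p under 0.05. With Het_sham replicate 38 left out 1 passed, and with Het_sham replicate 52 or WT_sham replicate 17 left out 2 passed. It was 42 without Het_sham replicate 30 or WT_sham replicate 31, 16 without Het_irradiated replicate 26 and 15 without WT_irradiated replicate 12. It was 4 without each of 12 tumors, 5 without each of 7, 6 without each of 7 and 7 without each of 2. The call of 5430405H02Rik held without 41 of the 42 tumors, that of Ankra2 without 39, that of Tmem14c without 38 and that of Psma2 without 37. The call of Rsf1 held without 22, and the calls of the other 7 genes held without 4 to 11.

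The count also moved with the 2 control measures, with the epithelial score as a covariate and with the tumors kept. With the 3' minus 5' difference as a covariate limma called 0 genes, with a lowest adjusted p of 0.148, and 1143 had an unadjusted p under 0.05. Log2 fold changes with it, ± their standard errors, were -0.48 ± 0.10 for 5430405H02Rik, 0.42 ± 0.09 for Ankra2, -0.34 ± 0.09 for Rsf1 and -0.65 ± 0.14 for Stard13. Given 18S as a covariate, 6 passed, and without the 3 arrays of low 18S 3 passed. Only 5430405H02Rik passed with the epithelial score as a covariate (limma adjusted p = 0.0412). With no tumor dropped, or with 4 wild-type and 3 heterozygote tumors dropped, 1 gene passed, Ankra2. With 12 and 9 dropped it was 10. The log2 fold changes of the 12 genes kept their sign under each of these settings and without each tumor.

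Tested within each host genotype, no gene passed. In heterozygote hosts 0 of 12508 genes (0%) passed and 1157 (9.25%) had an unadjusted limma p under 0.05. In wild-type hosts 0 of 12508 (0%) passed and 1281 (10.2%) had an unadjusted limma p under 0.05. In heterozygote hosts the 3 genes of lowest p in each direction were G6pc3, a glucose-6-phosphatase of the endoplasmic reticulum, Derl2, of endoplasmic reticulum protein degradation, Stard3, a cholesterol transporter of endosomes, Eogt, a glycosyltransferase, Apod, and Clec11a, a secreted growth factor. In wild-type hosts the 3 of lowest p in each direction were Stard13, Zfp438, a zinc finger protein, Myo7a, an unconventional myosin, Adamts16, a secreted metalloproteinase, Psma2 and Mrpl32.

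G6pc3 was at 8.49, 8.70 and 9.13 (lowest, median and highest) in irradiated heterozygote hosts, against 7.79, 8.02, 8.20 and 8.34 in the sham ones. All 14 irradiated tumors lay above the highest of the 4 sham tumors, and the log2 fold change was 0.64 (limma adjusted p = 0.0624). In wild-type hosts it was at 8.80, 9.01 and 9.57 in irradiated and 8.88, 9.11 and 9.44 in sham hosts, a log2 fold change of -0.00. Log2 fold changes in heterozygote hosts were 0.63 for Derl2, 0.74 for Stard3, -0.72 for Eogt, -2.77 for Apod and -1.06 for Clec11a (limma adjusted p of 0.0846 to 0.102). Without Het_sham replicate 30, 125 genes passed in heterozygote hosts, and 0 to 8 passed without any other tumor.

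Adamts16 was at 5.57, 5.88 and 6.48 (lowest, median and highest) in irradiated wild-type hosts and at 5.17, 5.54 and 5.67 in sham ones, with 15 of 17 irradiated tumors above the highest sham tumor. Its log2 fold change was 0.43 in wild-type hosts (limma adjusted p = 0.064) and 0.04 in heterozygote hosts. Zfp438 was at 5.90, 6.46 and 6.84 in irradiated and 6.51, 6.94 and 7.73 in sham wild-type hosts, and the log2 fold change was -0.69 (limma adjusted p = 0.064). Myo7a was at 5.73, 6.40 and 7.19 in irradiated and 6.21, 7.20 and 9.86 in sham wild-type hosts, and the log2 fold change was -1.46 (limma adjusted p = 0.0953). All 17 irradiated tumors lay below the sham median for Zfp438 and Myo7a. Without WT_sham replicate 31, the sham tumor closest to the limit of the score, 9 genes passed in wild-type hosts, and 0 to 3 passed without any other tumor.

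The irradiation effect did not differ detectably between heterozygote and wild-type hosts for any gene. For the heterozygote effect minus the wild-type effect, 0 of 12508 genes (0%) passed and 779 (6.23%) had an unadjusted limma p under 0.05. Poli, a DNA polymerase that copies past damage, was at 6.92, 7.18 and 7.35 (lowest, median and highest) in irradiated heterozygote hosts, against 5.97, 6.78, 6.92 and 6.94 in the sham ones. In wild-type hosts it was at 6.97, 7.27 and 7.73 in irradiated and 7.14, 7.45 and 8.09 in sham hosts. Log2 fold changes of Poli were 0.50 in heterozygote and -0.30 in wild-type hosts, a difference of 0.81 (limma adjusted p = 0.686). Differences of the other genes among the 3 of lowest p in each direction were 0.65 for G6pc3, 0.51 for Mtpap (the mitochondrial poly(A) polymerase), -0.72 for Clec2e, -0.76 for Pdzd8 (a lipid transfer protein) and -0.57 for Iqsec3. With 4 sham tumors in heterozygote hosts, their number limits what this comparison could detect.

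Tgfb1 itself, of which heterozygote hosts carry 1 working copy, did not pass. It was at 7.84, 8.36 and 8.97 (lowest, median and highest) in irradiated heterozygote hosts, against 6.24, 7.82, 8.26 and 8.47 in the sham ones. In wild-type hosts it was at 8.29, 8.66 and 9.08 in irradiated and 8.05, 8.77 and 9.31 in sham hosts. Its log2 fold change was 0.17 with host genotype as a block (limma adjusted p = 0.667), and it changed sign, to -0.03, without Het_sham replicate 52. Within hosts the log2 fold change of Tgfb1 was 0.63 in heterozygote and -0.12 in wild-type hosts. That difference of 0.75 did not pass (limma adjusted p = 0.749). Esr1, the estrogen receptor of luminal cells, spread widely, at 5.35, 7.23 and 10.42 in irradiated heterozygote hosts, against 4.55, 4.84, 7.51 and 8.24 in the sham ones, and at 5.72, 6.95 and 8.69 in irradiated and 6.04, 6.52 and 7.57 in sham wild-type hosts. Its log2 fold change, ± its standard error, was 0.50 ± 0.36 (limma adjusted p = 0.565).

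The epithelial-rich tumors were set against the 14 dropped ones in 1 model of all 56 arrays. The irradiation effect differed for 1 of 12508 genes (0.00799%), Ddx54, a nuclear RNA helicase, and 1405 genes (11.2%) had an unadjusted limma p under 0.05. Ddx54 was at 10.12, 10.30 and 10.58 (lowest, median and highest) in irradiated and 10.15, 10.21, 10.23 and 10.47 in sham epithelial-rich tumors of heterozygote hosts, and at 10.20, 10.49 and 10.86 in irradiated and 10.07, 10.40 and 10.65 in sham ones of wild-type hosts. Among dropped tumors it was at 10.11, 10.21, 10.33 and 10.63 in irradiated and 10.75 and 10.79 in sham heterozygote hosts. In wild-type hosts the dropped tumors were at 9.88, 10.18, 10.22, 10.34, 10.41 and 10.59 in irradiated and 10.76 and 11.14 in sham hosts. The effect was 0.12 in epithelial-rich and -0.59 in dropped tumors, a difference of 0.70 (limma adjusted p = 0.0478). All 10 irradiated dropped tumors lay below the sham ones of their host, while the groups overlapped among epithelial-rich tumors. Cep250, of the centrosome, Cd248, a marker of perivascular cells, Spata1, Pcbd1 and Ubxn7 came next and did not pass (limma adjusted p of 0.0540 to 0.106). Leaving out each tumor in turn gave 0 to 24 genes, with 24 without Het_sham replicate 19, 14 without Het_irradiated replicate 23, 7 without WT_sham replicate 31 or 60, and 0 without each of 27 tumors.

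None of the 12 genes that passed in the epithelial-rich tumors had a difference from the dropped tumors that passed. Ykt6 had an effect of 0.36 in epithelial-rich and -0.33 in dropped tumors, a difference of 0.69 (limma adjusted p = 0.144). The effect of Rsf1 was -0.42 in epithelial-rich and 0.09 in dropped tumors, and that of 6430590A07Rik was -0.49 in epithelial-rich and 0.18 in dropped tumors. Effects in epithelial-rich and dropped tumors had the same sign for Ankra2 (0.41 and 0.31), Psma2 (0.31 and 0.31), Stard13 (-0.57 and -0.55) and Lsm1 (0.51 and 0.57). The sign was also the same for Edn3 (0.43 and 0.31), Ubxn8 (0.52 and 0.19), 5430405H02Rik (-0.49 and -0.09) and Tmem14c (0.39 and 0.006). For Mrps23 the effects were 0.48 in epithelial-rich and -0.0003 in dropped tumors. Intervals of the dropped tumors were wide, since they held 4 sham tumors, and a p that misses the threshold does not show that effects are alike. The plot of both effects gives the 95% intervals.

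**Figure D3:**
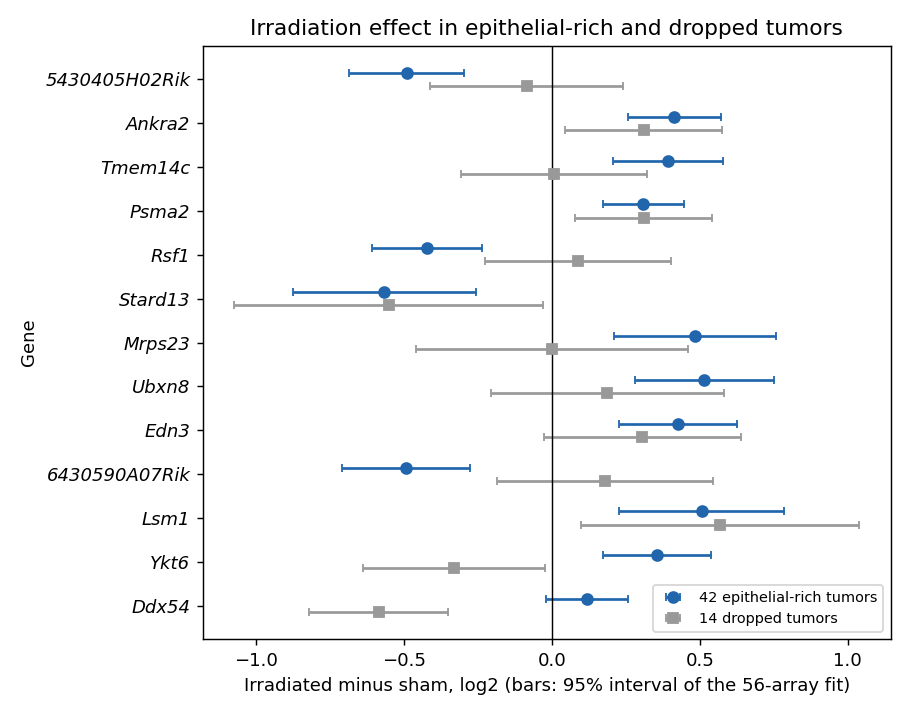
Irradiation effect (irradiated minus sham, log2) with its 95% interval in 42 epithelial-rich tumors (blue circles) and 14 dropped tumors (gray squares), from 1 fit of 56 arrays. Shown are Ddx54 and the 12 genes that passed in the separate fit of 42 arrays. In the fit shown, 2 of these 12 passed in epithelial-rich tumors, Ankra2 and 5430405H02Rik. For Ykt6 the effects lie on opposite sides of 0, and for Ddx54 the effect is near 0 in epithelial-rich tumors and -0.59 in dropped ones.

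Gene lists were described by their counts and medians, beside a median of 0.00 and 51% positive values over all 12508 genes. Of 432 genes tested in 32 lists, the 4 score genes included, 1 passed, Psma2. Of the proteasome list 1 of 20 genes passed, against a background of 0.064% higher, 17 had positive log2 fold changes and the median was 0.11. Psmd12 and Psmd1, subunits of the regulatory cap, were at 0.21 and 0.18 and did not pass. Of the oxidative phosphorylation list 0 of 18 passed, 13 were positive, and Cox5a, a subunit of cytochrome oxidase, was at 0.22. In the dropped tumors the proteasome median was 0.06.

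Lists of hypoxia, the cell cycle and stroma lay below 0. Of the hypoxia and glycolysis list, genes that cells induce at low oxygen, 0 of 19 passed, 17 were negative and the median was -0.19. It was -0.16 in heterozygote and -0.32 in wild-type hosts. Pdk1, which keeps pyruvate out of mitochondria, was at -0.51, Pfkl, a glycolytic kinase, at -0.50 and Bnip3, of mitochondrial clearance, at -0.57. Sample scores of this list ran from 9.71 to 11.03 in irradiated and 10.27 to 10.92 in sham heterozygote hosts, and from 9.87 to 10.94 in irradiated and 10.22 to 10.97 in sham wild-type hosts, so the groups overlapped. Of the mitosis and replication list 0 of 19 passed, 13 were negative and the median was -0.14, with Ccna2 (cyclin A2) at -0.37 and Mki67 at -0.27. Of the fibroblast and matrix list 0 of 19 passed, 16 were negative and the median was -0.14, with Pdgfra, a growth factor receptor of fibroblasts, at -0.66.

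Antigen presentation lay above 0. Of the MHC class I list 0 of 12 passed, all 12 were positive and the median was 0.27, with H2-D1 at 0.28 and Psmb10, an immunoproteasome subunit, at 0.45. The class I median was 0.11 in heterozygote hosts, with 9 of 12 positive, 0.30 in wild-type hosts, with 12 positive, and -0.28 in the dropped tumors. Class I scores overlapped, from 10.26 to 11.78 in irradiated and 10.32 to 11.47 in sham heterozygote hosts, and from 10.71 to 12.30 in irradiated and 10.69 to 11.69 in sham wild-type hosts. Of the MHC class II list 0 of 7 passed and all 7 were positive, with a median of 0.33. Of the interferon-stimulated list 0 of 17 passed and all 17 were positive in the blocked contrast, with a median of 0.17. Within heterozygote hosts its median was -0.29 with 3 of 17 positive, where 51.8% of all genes were positive. Within wild-type hosts it was 0.44 with 17 of 17 positive, where 50.9% of all genes were. Cxcl10, a chemokine that interferon induces, was at 0.71, 0.30 in heterozygote and 0.97 in wild-type hosts, and no member's difference between hosts passed. Interferon scores overlapped in each genotype, from 7.42 to 10.62 in irradiated and 8.68 to 10.46 in sham heterozygote hosts, and from 7.76 to 11.35 in irradiated and 8.93 to 11.03 in sham wild-type hosts.

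Marker lists of other cell types were described in the epithelial-rich tumors, and whether these cells were present was not tested. Median skeletal muscle scores of the 4 groups, 4.96 to 5.21, lay below 5.83, the median of all values. Of the neutrophil list 0 of 9 passed and the median was 1.28 in heterozygote and -0.19 in wild-type hosts. Il1b, an inflammatory cytokine, was at 0.67 and Csf3r, the receptor for granulocyte growth factor, at 0.59. Neutrophil scores ran from 6.58 to 10.86 in irradiated and 5.60 to 8.21 in sham heterozygote hosts, and from 6.29 to 8.85 in irradiated and 6.56 to 8.31 in sham wild-type hosts. Of the mast cell list 0 of 6 passed, 5 were negative and the median was -0.48, with the proteases Cma1 at -0.57 and Tpsab1 at -0.59. Mast cell scores ran from 5.23 to 6.40 in irradiated and 5.32 to 8.09 in sham heterozygote hosts, and from 5.51 to 6.33 in irradiated and 5.72 to 6.80 in sham wild-type hosts. Tpsab1 was at 8.82 in Het_sham replicate 52, with 3.92 in the next-highest sham tumor of heterozygote hosts. Of the macrophage list 0 of 15 passed and 13 were positive, with a median of 0.23, while Cd163 and Mrc1, markers of tissue macrophages, were at -0.73 and -0.55. Macrophage scores ran from 8.69 to 10.29 in irradiated and 8.72 to 10.19 in sham heterozygote hosts, and from 9.34 to 10.35 in irradiated and 9.58 to 10.68 in sham wild-type hosts. Of the T and cytotoxic cell list 0 of 10 passed and all 10 were positive, with a median of 0.19. Endothelial, adipocyte and skeletal muscle lists had medians of 0.04, 0.08 and 0.26 with 0 genes passing. In heterozygote hosts the adipocyte median was 0.75 with 9 of 9 positive and the skeletal muscle median 0.82 with 11 of 12 positive, against -0.16 and -0.09 in wild-type hosts. Skeletal muscle scores were at 4.80, 4.96 and 10.55 (lowest, median and highest) in irradiated and 4.80, 5.07 and 7.02 in sham heterozygote hosts. The median muscle score was thus not higher in irradiated hosts. Adipocyte scores there were at 5.77, 7.20 and 9.37 in irradiated and 5.93, 6.54 and 7.54 in sham hosts, so the groups overlapped. The T and cytotoxic cell median was -0.01 in heterozygote and 0.30 in wild-type hosts. T and cytotoxic cell scores of wild-type hosts were at 5.68, 5.85 and 7.92 in irradiated and 5.36, 5.87 and 6.17 in sham tumors. No member's difference between hosts passed. Alas2, the only erythroid gene tested, was at -0.51. The part of these cells in the 12 genes that passed was not tested.

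Of the epithelial and damage-related lists, single members lay away from 0. The epithelial adhesion list holds the 4 score genes, so no count of it is given, and its median of 0.07 is a description. Of its other members, Cldn4 (a claudin) was at 0.61 and Dsp (a desmosome protein) at 0.87. Of the luminal list 0 of 16 passed, 11 were positive and the median was 0.10. The luminal median was 0.06 in heterozygote hosts, with 9 of 16 positive, and 0.19 in wild-type hosts, with 11 positive. The luminal list held Krt7, a keratin of ductal cells, at 0.82, Tff1, an estrogen target, at 0.26 and Stat5a, which drives milk genes, at 0.56. Tff1 was at 7.83, 8.13 and 8.31 (lowest, median and highest) in irradiated and 7.52, 7.70 and 8.05 in sham wild-type hosts. All 17 irradiated tumors lay above the sham median there. With host genotype as a block, over both hosts, Tff1 did not pass (limma adjusted p = 0.109). Of the milk list 0 of 14 passed, 11 were positive and the median was 0.16, with Csn2 (beta-casein) at 1.15 and Glycam1 at 1.57. The milk median was -0.02 in heterozygote hosts, with 7 of 14 positive, and 0.52 in wild-type hosts, with 11 positive. The basal list had a median of -0.04, with Lamb3, of the basement membrane anchor, at 0.89 and Dst at -0.78. Of the p53 target list 0 of 17 passed and the median was 0.04, with the growth arrest gene Gadd45a at 0.69 and the stress gene Sesn1 at -0.37. The DNA damage and repair list had a median of 0.01, with Xrcc4, of break rejoining, at 0.23.

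Signalling lists held single members at a distance from 0 and none that passed. Of the TGF-beta list 0 of 20 passed and the median was 0.13, with Smad2, a receptor-activated signal carrier, at 0.26, Ltbp1, which binds latent TGF-beta to the matrix, at 0.73 and Bhlhe40 at -0.41. Of the Notch list 0 of 15 passed and the median was -0.02, with the target Hey1 at -0.93 and the ligand Dll1 at -0.73. The Wnt list had a median of 0.12, with the co-receptor Lrp6 at -0.34. Of the immediate early list 0 of 18 passed and 15 were positive, with Junb at 0.45. Of the oxidative stress list 0 of 10 passed, 5 were positive and the median was 0.05, with Gsr, glutathione reductase, at 0.65. Hmox1, the heme-degrading enzyme, was at 0.52 in heterozygote and -0.94 in wild-type hosts (limma adjusted p = 0.678 and 0.279). Of the other lists, keratinization (0 of 9), mesenchymal transition (0 of 13), metalloproteinases (0 of 15), B cell (0 of 6) and ErbB (0 of 9) had medians of -0.03, 0.07, 0.23, 0.06 and -0.04. The plot of list medians sets the hosts side by side.

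**Figure D4:**
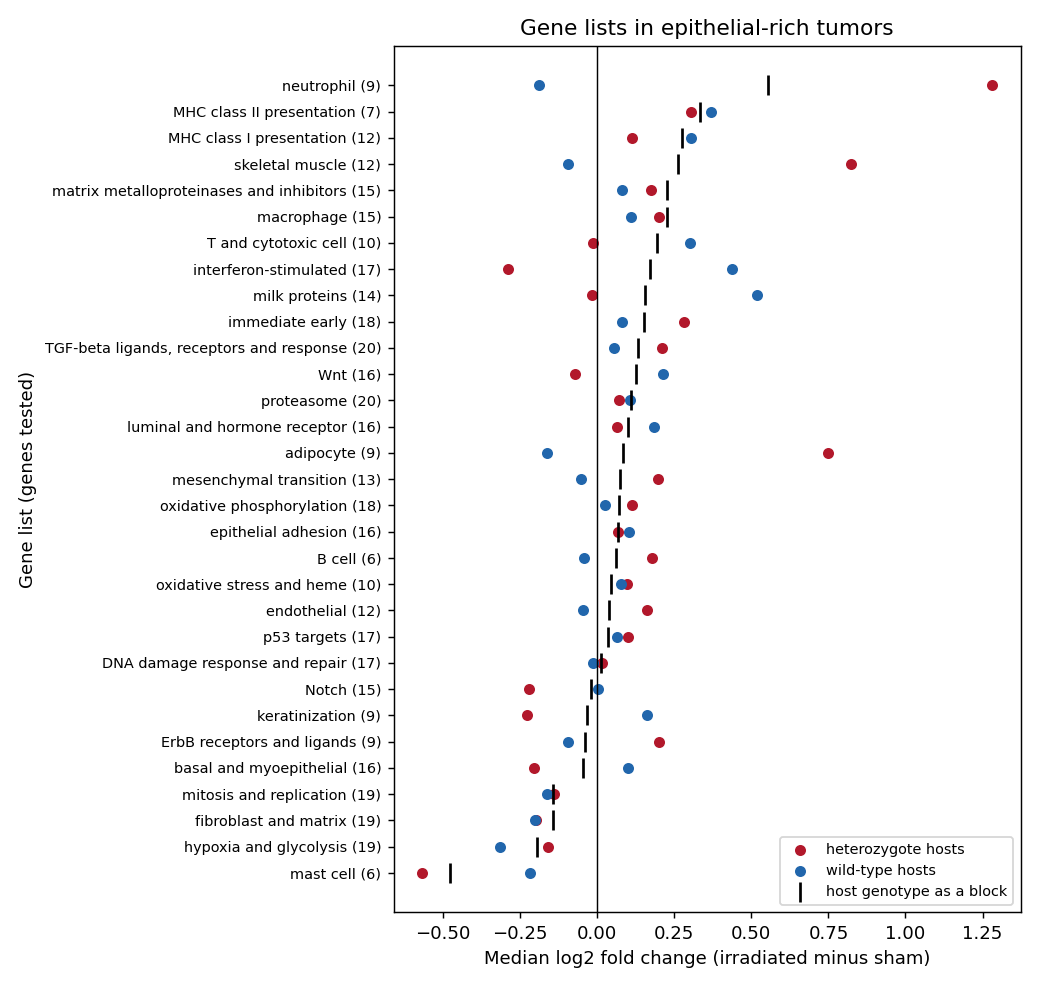
Median log2 fold change (irradiated minus sham) of the genes of each list in epithelial-rich tumors, with the number of genes tested in parentheses, for heterozygote hosts (red), wild-type hosts (blue) and the contrast with host genotype as a block (black bar). The hosts lie on opposite sides of 0 for the neutrophil list (1.28 in heterozygote and -0.19 in wild-type hosts) and the interferon-stimulated list (-0.29 in heterozygote and 0.44 in wild-type hosts), and on the same side for hypoxia and glycolysis (-0.16 in heterozygote and -0.32 in wild-type hosts).

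The genes of lowest p lay on chromosomes 11, 13 and 2 more often than the share of genes tested there. The pattern is described here after the values were seen and without a test. Of the 100 genes of lowest p, 18 were on chromosome 11, which holds 8.43% of the genes tested, and 15 on chromosome 13, which holds 3.58%. Chromosome 8 held 7, not far from its share of 5.36%, and all 40 of these genes had positive log2 fold changes. Chromosome 2, which holds 7.85% of the genes tested, held 14, of which 2 were positive. Of all genes tested, 73.5% were positive on chromosome 11, 72.8% on chromosome 13, 73.9% on chromosome 8 and, on chromosome 2, 334 of 982 genes. Of the 12 genes that passed, Ankra2, Tmem14c and Psma2 are on chromosome 13, Mrps23 and Ykt6 on chromosome 11, and Ubxn8 and Lsm1 on chromosome 8.

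The median log2 level of chromosome 13 genes in a tumor, minus the median level of all genes tested in that tumor, was at -0.11, 0.13 and 0.32 (lowest, median and highest) in irradiated heterozygote hosts, against -0.19, -0.12, -0.02 and 0.08 in the sham ones. In wild-type hosts it was at -0.03, 0.07 and 0.18 in irradiated and -0.17, 0.01 and 0.19 in sham hosts. For chromosome 11 this level was at -0.08, 0.13 and 0.37 in irradiated heterozygote hosts, against -0.27, -0.13, -0.12 and 0.16 in the sham ones. In wild-type hosts the chromosome 11 level was at -0.27, 0.12 and 0.25 in irradiated and -0.23, 0.07 and 0.19 in sham hosts. There 11 of 17 irradiated tumors lay above the sham median. The groups overlapped for both chromosomes. In the dropped tumors the median log2 fold change was 0.20 on chromosome 13 and -0.10 on chromosome 11. DNA copy number was not analysed here.

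**Figure D5:**
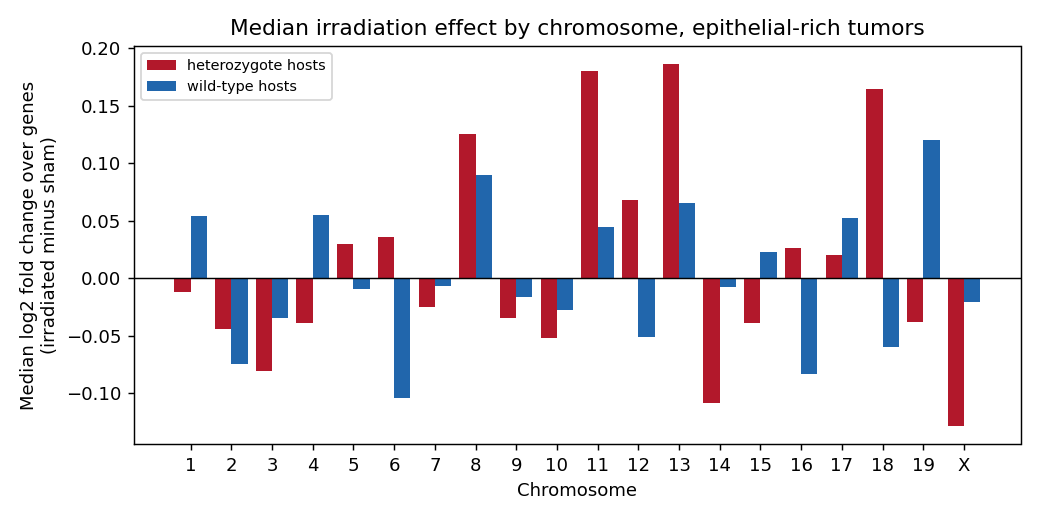
Median log2 fold change (irradiated minus sham) over the genes tested on each chromosome in epithelial-rich tumors, for heterozygote hosts (red) and wild-type hosts (blue). Bars of chromosomes 8, 11 and 13 lie above 0 in both hosts (0.13 in heterozygote and 0.09 in wild-type hosts on chromosome 8, 0.18 in heterozygote and 0.04 in wild-type hosts on 11, and 0.19 in heterozygote and 0.07 in wild-type hosts on 13), and those of chromosome 2 lie below 0 (-0.04 in heterozygote and -0.07 in wild-type hosts).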

How the data were processed

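RNA of 56 tumors was labelled from 100 ng of input for Affymetrix arrays that read transcripts near the 3' end, per the labels' protocols. The authors deposited log2 values, summarised for each probe set with RMA, per the submitters' processing notes, in a version not given in the sources used here. Array medians of the kept tumors were 5.57 to 5.70 in heterozygote and 5.92 to 5.99 in wild-type hosts, and the arrays of each genotype were therefore treated as 1 separately normalized set, so that levels were not compared between them. Of 45101 probe sets, 34958 paired with a single symbol and were used, while 932 paired with several and 9211 with none. Symbols, chromosomes and neighbouring genes came from the GRCm38.p6 annotation, which matched 12467 of 12508 genes. No source used here names the build behind the files, so no coordinates are printed. Dim probe sets, those above 5.83 (the overall median) on fewer than 6 arrays, were left out, and the brightest by mean was used for each gene. The number of arrays limits the precision, and signal above background was not analysed here.

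Groups came from the sample labels, and no batch or date is given. The highest correlation between 2 arrays was 0.990, and no columns were identical. Limma 3.58.1 in R 4.3.3 (lmFit, eBayes, Benjamini-Hochberg over all genes tested, threshold 0.05) was fitted to the 42 kept arrays. One model had host genotype as an additive block, another 4 group means for the effect in each host and their difference. Kept and dropped tumors were compared in a model of 56 arrays. Exact permutation tests of single measures were run in Python 3.11.15 with scipy 1.17.1. The fits were tested on simulated data.

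The members, the comparisons and 32 gene lists (507 genes, 432 tested) were chosen with earlier results of these data known. Named genes were the 12 of lowest p in each direction of the blocked contrast, the 3 of lowest p in each direction of the other contrasts, the 4 score genes, Tgfb1, Esr1 and Ankra2, and up to 4 members of lowest p per list, of which the text gives a part. Tpsab1 of single tumors and the chromosomes were chosen after the values were seen. Alternatives were other filters, all probe sets, array weights, eBayes with a trend and robust, quantiles set equal over all arrays, control measures as covariates, the epithelial score as a covariate, other numbers of dropped tumors, another score, each host fitted alone, and each tumor left out. The gene that the transplants lack is not reported here. Plots were drawn with matplotlib 3.10.9.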

Additional observations from a re-analysis of the deposited data

Results flagged for a closer look

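In 10 of 170 sets of 4 or 7 sham tumors, a tumor stood apart from the others of its group, where chance alone gives about 1 in 20. Het_sham replicate 52 stood apart for 3 genes. Its Tpsab1, a mast cell protease, was at 8.82, against 3.92 in the next tumor. Its Cox5a was at 11.87, against 12.47, and its Lamb3 at 8.63, against 10.24 in the next. Het_sham replicate 58 was low for Poli at 5.97, against 6.78 in the next tumor. WT_sham replicate 65 was high for Spata1 at 8.58, against 6.47, and for Tpsab1 at 6.00, against 4.98. WT_sham replicate 64, of low 18S, was high for Stard3 at 9.70, against 9.46, and for Clec2e at 5.79, against 5.44. WT_sham replicate 17 was low for Derl2 at 10.01, against 10.29, and WT_sham replicate 3 was high for Xrcc4 at 8.47, against 7.90. The groups of irradiated tumors, of 14 and 17, were too large for this comparison and were not examined in this way.

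The irradiation effect on Ddx54 differed between epithelial-rich and dropped tumors by 0.70 on the log2 scale (limma adjusted p = 0.0478), and it rests on 4 sham tumors among the dropped ones.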

How the results depend on the processing

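For irradiation with host genotype as a block, 12 genes passed. The count was 6 with 18S as a covariate, 0 with the 3' minus 5' difference as a covariate, 100 with all 22184 probe sets, 48 with another epithelial score, 5 with array weights and 3 without the arrays of low 18S. It was 1 with the epithelial score as a covariate, 1 with 4 wild-type and 3 heterozygote tumors dropped, 1 with no tumor dropped and 2 with joint quantile normalization. It lay within 1.5 times of 12 with the other filters, a trended eBayes, an equal-weight mean of the hosts and 12 and 9 tumors dropped. The score that gave 48 genes differed by 1 tumor, with WT_irradiated replicate 5 in place of WT_sham replicate 31.

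In heterozygote hosts, where 0 passed, the count was 1 with 18S as a covariate, 4 with all probe sets, 1 with array weights, 6 with 4 and 3 dropped and 2 with no filter. In wild-type hosts, where 0 passed, it was 4 with 18S as a covariate, 8 with all probe sets, 8 with another score, 3 without low 18S, 1 with the filter on 42 arrays, 9 with 12 and 9 dropped, 3 with no filter and 1 with a stricter filter. For the difference between hosts limma gave 0 under each alternative, with 464 to 1313 genes at an unadjusted p under 0.05. For epithelial-rich minus dropped tumors, where 1 passed, it was 0 with 18S as a covariate, all probe sets, another score, array weights, 12 and 9 dropped and joint quantile normalization, with 530 to 2315 at an unadjusted limma p under 0.05. It was 25 without low 18S, 7 with 4 and 3 dropped and 4 with no filter. The cause was not tested.

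Leaving out each tumor gave 0 to 42 genes for the blocked contrast, 0 to 125 in heterozygote hosts, 0 to 9 in wild-type hosts, 0 to 0 for the host difference and 0 to 24 for epithelial-rich minus dropped tumors. Of 5249 values of 90 genes, 4685 kept their sign and their side of the threshold, 396 no longer passed, 163 newly passed and 5 changed sign. Tgfb1 turned to -0.0096 with 12 and 9 dropped, -0.047 with 4 and 3 dropped, -0.084 with no tumor dropped and -0.034 without Het_sham replicate 52, and it ranged from -0.034 to 0.239 over the tumors left out. Esr1 turned to -0.023 with 12 and 9 dropped. Fisher's tests of the dropped tumors kept their side of the threshold. No paired analysis was possible because replicate numbers do not recur across groups.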
